A study of Mus musculus with 20 samples.

Results

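In colons of 20 mice, 5 in each of 4 groups, RNA-seq levels were examined for 10 genes of innate microbial sensing, namely 8 Toll-like receptor genes (Tlr1, Tlr2, Tlr3, Tlr4, Tlr5, Tlr6, Tlr7 and Tlr9) and the adaptor genes Myd88 and Ticam1. They were chosen by name from the 32991 genes of the tables, and the value of a gene was the sum of the FPKM of its Ensembl transcripts in a mouse, where FPKM is the fragment count scaled to transcript length and library size. All mice were male C57BL/6, with 1 library per mouse. The Control group received double distilled water by gavage for 91 days. The PZH group received the Chinese herbal medicine PZH (Pien Tze Huang) at 250 mg/kg per day over the same time. The AOM/DSS group, labelled Model, received the water and was made a model of colitis-associated cancer with the carcinogen azoxymethane (AOM, 12.5 mg/kg) and 4 cycles of 2% dextran sodium sulfate (DSS), an agent that injures the colon lining, for 5 days each. The PZH + AOM/DSS group, labelled Model + PZH, received both the model treatment and PZH. The labels name the tissue as colon and do not say whether a piece held tumour, and the age of the mice is not given in the sources used here.

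Toll-like receptors recognise molecules of bacteria, viruses and damaged cells. Those at the cell surface bind lipoproteins, lipopolysaccharide and flagellin, and those in endosomes bind RNA or DNA. Myd88 carries the signal of most of them, and of the interleukin-1 receptor family, to NF-κB, while Ticam1 (TRIF) serves Tlr3 and the endosomal signal of Tlr4. In the colon the receptors are found on epithelial cells and on immune cells of the mucosa, where bacteria are dense.

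The depth was 15.3 to 19.4 M estimated fragments per mouse, with the lowest value in the PZH group and the highest in Control, and no pair of mice had identical values. Between 12.1% and 14.8% of the FPKM of a mouse lay in transcripts that the authors' assembly had built and that carry no gene name, so fragments assigned to them are missing from the gene sums. How far this moved the sum of a gene was not tested. Of the epithelial markers, Epcam was at 0 in the tables of all 5 Control mice but at up to 865 FPKM in PZH + AOM/DSS, although the 6 epithelial markers together held 1111 to 4347 FPKM in Control and 1232 to 3754 FPKM in PZH + AOM/DSS. Control mice 17 and 50 stood apart in 4 squamous epithelium markers, with sums of 222 and 194 FPKM, beside 0.824 to 1.64 FPKM in the other Control mice and 10.4 to 34.2 FPKM in AOM/DSS. All 10 genes passed the filter on low values (a minimum of 0.5 FPKM in 5 or more of the compared mice) in each comparison. Differences are given on the scale of log2(FPKM + 1), which understates changes of low genes, and a gene was called where the adjusted p of limma was under 0.05.

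In Control colon the adaptor Myd88 had the highest level of the 10 genes, with 19.5 ± 3.36 FPKM (SD, n = 5), followed by Tlr1 with 13.98 ± 2.92 and Ticam1 with 12.4 ± 2.16 FPKM. The ranges of Tlr1 and Ticam1 overlapped, and Tlr1 was above Ticam1 in 3 of 5 mice. Tlr4, the receptor for lipopolysaccharide, followed with 6.28 ± 2.84 FPKM, and its range lay below that of Ticam1. Tlr3, with 3.63 ± 3.18, and Tlr2, with 3.61 ± 1.10 FPKM, could not be ordered, since Tlr3 was the higher in 2 of 5 mice. The other genes were near 1 FPKM with overlapping ranges, at 1.07 ± 0.62 for Tlr5, 0.83 ± 0.36 for Tlr6, 0.78 ± 0.34 for Tlr9 and 0.70 ± 0.06 for Tlr7. FPKM is per transcript length, but fragments in transcripts without gene name are missing from the gene sums. How much each gene lost is unknown, so the order is that of the listed values only. In the AOM/DSS group the order changed at Tlr2, which came second after Myd88 and above Ticam1 in 4 of 5 mice.

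**Figure D1:**
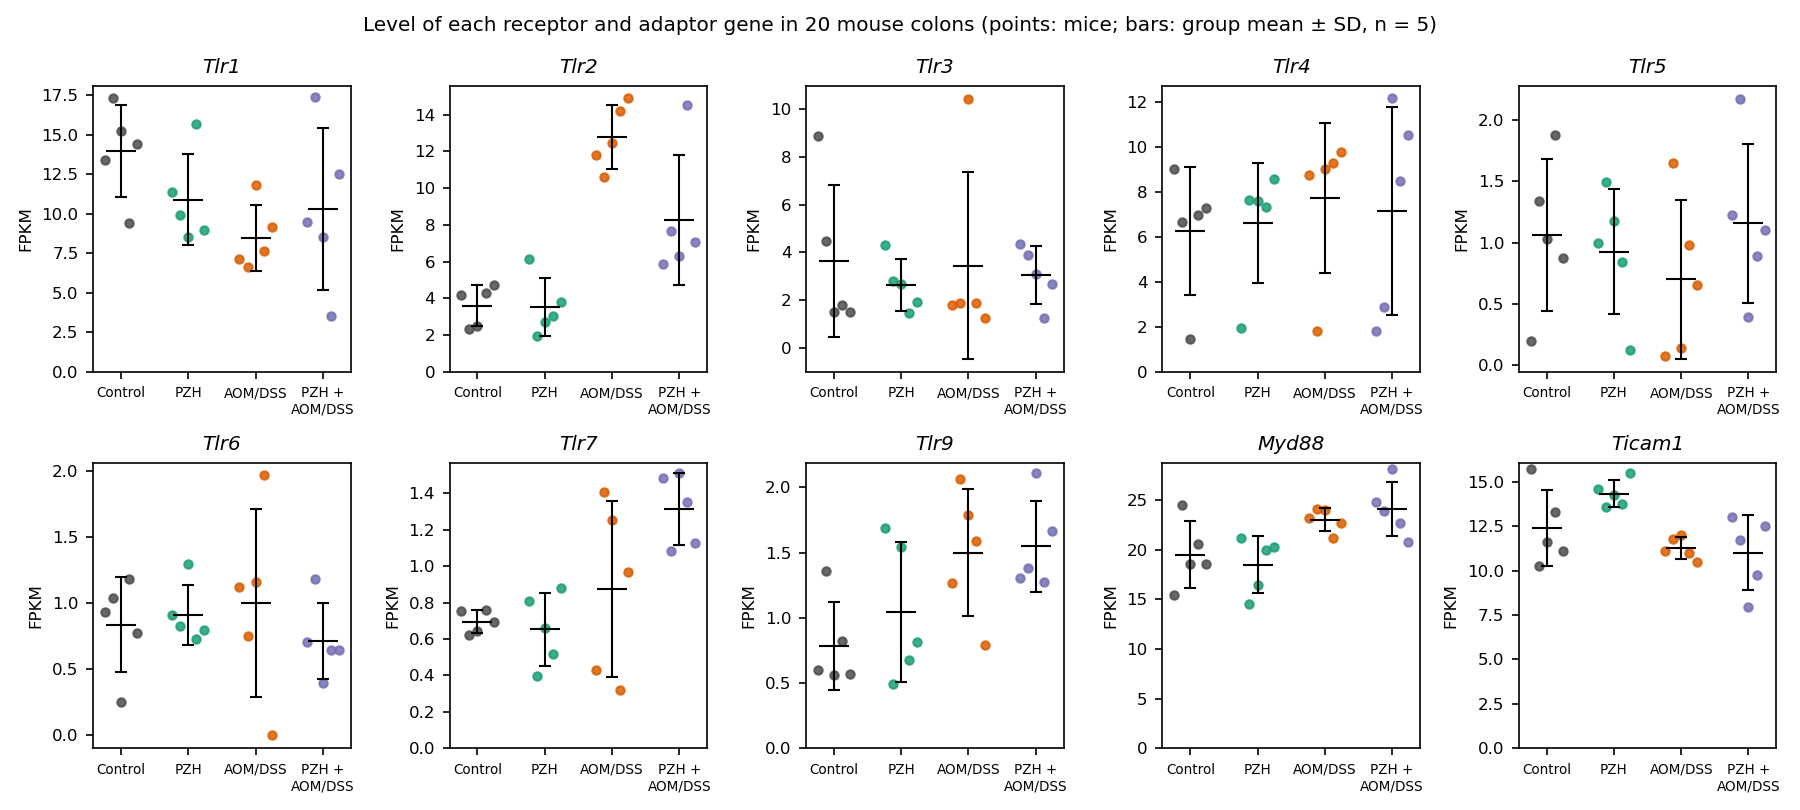
FPKM (vertical axes, each with its own scale) of the 10 genes in every mouse by group, with the mean and SD of 5 mice. The 5 AOM/DSS mice sit between 10.6 and 14.9 FPKM for Tlr2, above all Control and PZH mice, and for Tlr7 all PZH + AOM/DSS mice sit above all Control mice.

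Tlr2, Tlr1 and Tlr6 belong together, since TLR2 pairs with TLR1 for triacylated and with TLR6 for diacylated lipoproteins. On GRCm38 Tlr2 lies on the minus strand at chr3:83836272-83841767, and Tlr1 (chr5:64924679-64933563) and Tlr6 (chr5:64952031-64960097) are neighbours on the minus strand of chromosome 5. The bases just upstream of their starts are shown because Tlr2 and Tlr1 were the genes called between AOM/DSS and Control, in opposite directions, and Tlr6 is their partner. They were taken from RefSeq promoter windows on GRCm38.p6 (250 bases before to 50 after the RefSeq start), each reduced to the part upstream of the GENCODE start as well, at chr3:83841768-83841858, chr5:64933564-64933808 and chr5:64960098-64960298, minus strand. Capitals mark a match to the NF-κB type (GGG and TTCC with any 3 bases between) in Tlr2 and Tlr6 and to GAGGAAGT (ETS type) in Tlr1.
Tlr2: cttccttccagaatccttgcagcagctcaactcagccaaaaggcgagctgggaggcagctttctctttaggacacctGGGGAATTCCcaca
Tlr1: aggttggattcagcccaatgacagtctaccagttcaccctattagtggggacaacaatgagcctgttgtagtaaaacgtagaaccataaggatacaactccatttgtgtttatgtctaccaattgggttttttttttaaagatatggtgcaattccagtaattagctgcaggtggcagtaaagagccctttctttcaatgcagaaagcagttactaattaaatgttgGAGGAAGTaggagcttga
Tlr6: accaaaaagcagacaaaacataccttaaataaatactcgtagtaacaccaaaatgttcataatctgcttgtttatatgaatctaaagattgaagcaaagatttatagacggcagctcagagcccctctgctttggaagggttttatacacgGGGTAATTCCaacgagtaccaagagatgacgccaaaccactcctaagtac
The matches begin 173 bases before the RefSeq start in Tlr2, 23 bases before it in Tlr1 and 99 bases before it in Tlr6. Searched on both strands, the NF-κB type was held by 5.56% and GAGGAAGT by 3.2% of the 32851 RefSeq promoter windows of this length, and the interferon response type (GAAA repeated after any 2 bases) by 3.44%. RefSeq windows were found for 8 of the 10 genes, 10 windows in all, and not for Tlr4 and Tlr7. The Tlr3 window also held the NF-κB type, the Tlr9 window the ETS type, and the Myd88 window and another Tlr6 window the interferon response type (in Tlr6 as a pair of overlapping matches), while the windows of Ticam1 and Tlr5 held none of these letters. No binding was measured here, so the matches are a description of the sequence.

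The comparison of AOM/DSS with Control shows the model without PZH. Tlr2 was higher and Tlr1 lower in the AOM/DSS colon, and the other 8 genes were not called. Without Control mice 17 and 50, Tlr2 differed by 1.79 and was called (adjusted p = 0.000648), while Tlr1, at -0.65, was not (adjusted p = 0.0915). Of the 10 genes 1 was called higher and 1 lower, beside a background of 23.6% of 15812 genes called (16.4% higher and 7.23% lower). The share of calls that were higher was 69.4% and dropped to 54.4% when the libraries were scaled by median of ratios, under which both calls held. The median difference was 0.09 for the 10 genes and 0.09 for all genes.

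For Tlr2, which senses bacterial lipoproteins, Control mice had 4.19, 2.35, 2.50, 4.28 and 4.71 FPKM, and AOM/DSS mice had 11.8, 10.6, 12.5, 14.2 and 14.9 FPKM. The lowest AOM/DSS mouse was above the highest Control mouse, which was so for 18.4% of all genes in one direction or the other. The difference was 1.61 (SE 0.18, 95% confidence interval 1.21 to 2.01, limma adjusted p = 0.000161), or 3.05-fold on the FPKM + 1 scale. It was 1.503 to 1.69 when any single mouse was left out, with adjusted p from 0.000302 to 0.00101. The study's cut-offs were a fold above 2 and an unadjusted p under 0.05, applied to transcripts with another method, DESeq. Here they were applied to limma on gene sums, with the fold on the FPKM + 1 scale. Tlr2 alone of the 10 genes met them in this comparison, beside 7.71% of all genes. In bulk tissue more cells of a type and more RNA per cell cannot be told apart.

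For Tlr1 the Control values were 13.4, 17.4, 15.2, 9.43 and 14.4 FPKM and the AOM/DSS values 7.13, 6.65, 11.8, 7.65 and 9.17 FPKM. The groups overlapped, since Control mouse 48 was below AOM/DSS mouse 33. The difference was -0.66 (SE 0.18, 95% confidence interval -1.07 to -0.26, limma adjusted p = 0.0249). This call was lost with all 20 mice in one model (adjusted p = 0.0865) and without any of 6 mice, namely Control mice 37, 41 and 50 and AOM/DSS mice 23, 30 and 44, where the adjusted p was 0.0512 to 0.0602. Tlr6 had 0.248 to 1.18 FPKM in Control and 0 to 1.96 FPKM in AOM/DSS, with a difference of 0.06 (SE 0.27, adjusted p = 0.889), and 1 AOM/DSS mouse was listed at 0.

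Set side by side in each mouse, the Tlr2 level was below the Tlr1 level in all 10 Control and PZH mice and above it in all 5 AOM/DSS mice. The ratio of Tlr2 to Tlr1 was 0.136 to 0.454 in Control (median 0.312) and 1.06 to 1.86 in AOM/DSS (median 1.63). The mean log2 ratio differed by 2.60 (two-sided exact permutation test, p = 0.00794, adjusted p = 0.0212 over 8 comparisons of such ratios), where 0.00794 is the smallest p that 5 against 5 mice allow. Between PZH + AOM/DSS and AOM/DSS it differed by -0.84 (exact p = 0.198, adjusted p = 0.286). The ratio was chosen after the values were seen, so its p-values are not independent evidence. Which gene was the higher also rests on sums from which fragments may be missing, and this was not tested.

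**Figure D2:**
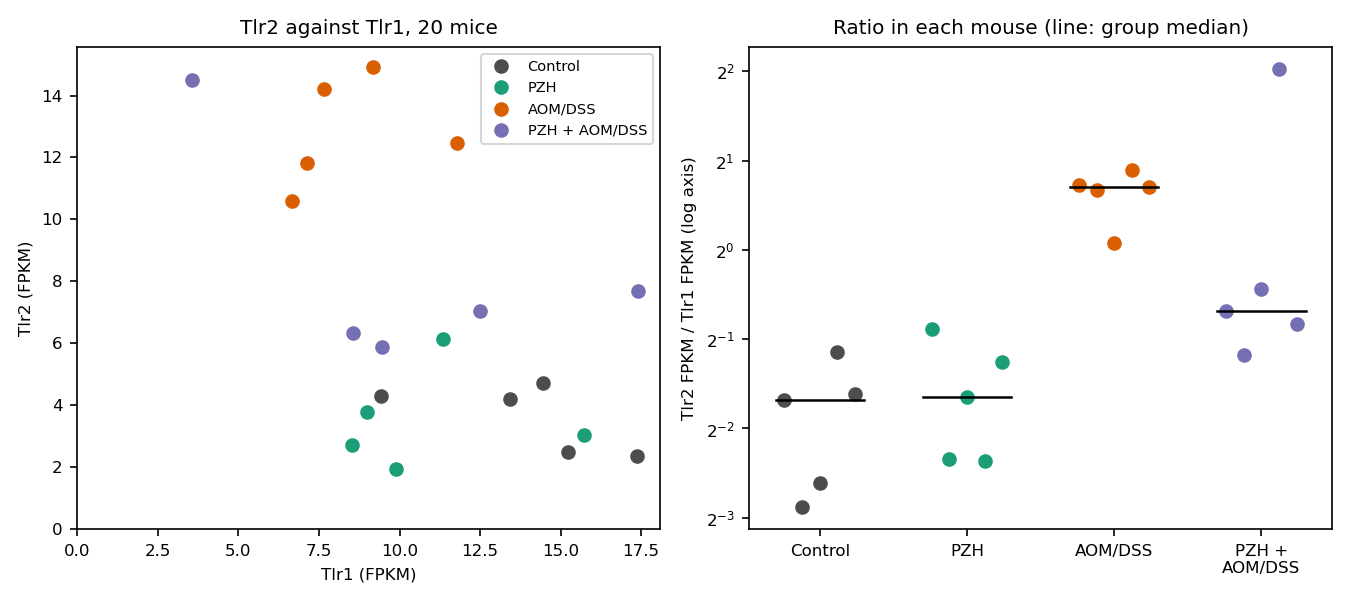
Left, Tlr2 against Tlr1 (both in FPKM) in each of 20 mice. Right, the ratio of Tlr2 to Tlr1 per mouse on a log axis with the group median as a line. All 5 AOM/DSS mice have a ratio above 1, and in PZH + AOM/DSS mouse 35 stands at 4.08 while the other mice are between 0.442 and 0.737.

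The other surface receptors varied more between mice of a group than between groups. Tlr4 (chr4:66827584-66930284, plus strand) had 9.004, 6.67, 1.46, 6.97 and 7.28 FPKM in Control and 8.74, 1.83, 9.01, 9.29 and 9.79 FPKM in AOM/DSS. Both groups held 1 mouse far below the rest. The difference was 0.26 with a 95% confidence interval of -0.74 to 1.26 (adjusted p = 0.729). Tlr5 (chr1:182954788-182976044, plus strand), the flagellin receptor, was 0.197 to 1.88 FPKM in Control and 0.0779 to 1.65 FPKM in AOM/DSS, with a difference of -0.31 (SE 0.29, adjusted p = 0.491).

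Among the endosomal receptors of the 10 genes, namely Tlr3, Tlr7 and Tlr9, none was called between AOM/DSS and Control. Tlr9 (chr9:106222598-106226883, plus strand), which binds unmethylated CpG DNA, had 0.597, 1.36, 0.566, 0.824 and 0.569 FPKM in Control and 1.27, 2.06, 1.79, 1.59 and 0.795 FPKM in AOM/DSS. The groups overlapped through Control mouse 37 and AOM/DSS mouse 52. The difference was 0.48 (SE 0.17, unadjusted p = 0.0168, limma adjusted p = 0.0644), and it was called without Control mouse 37 (0.59, adjusted p = 0.0265) or without AOM/DSS mouse 52 (0.60, adjusted p = 0.0297). Control mouse 37 also had the highest summed level in its group of the B cell, T cell, macrophage and dendritic cell markers and of Ptprc, lists described further on, and their part in the Tlr9 difference was not tested. Tlr7 (chrX:167304929-167330558, minus strand), which binds single-stranded RNA, was narrow in Control at 0.622 to 0.759 FPKM and wide in AOM/DSS at 0.319 to 1.41 FPKM (difference 0.11, SE 0.17, adjusted p = 0.701). Tlr3 (chr8:45395665-45411080, minus strand), the receptor for double-stranded RNA, was 1.51 to 8.87 FPKM in Control and 1.27 to 10.4 FPKM in AOM/DSS (difference -0.13, SE 0.50, adjusted p = 0.880).

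Neither adaptor was called. Myd88 (chr9:119335934-119341411, minus strand) had 15.4, 24.5, 18.5, 20.5 and 18.5 FPKM in Control and 23.2, 24.0, 23.9, 21.1 and 22.7 FPKM in AOM/DSS. Of the Control mice, mouse 37 alone was above all AOM/DSS mice. The difference was 0.24 (95% confidence interval -0.02 to 0.50, adjusted p = 0.169) and passed the threshold without Control mouse 37 (0.32, adjusted p = 0.0454). Ticam1 (chr17:56269319-56276786, minus strand) had 10.3 to 15.7 FPKM in Control and 10.499 to 11.99 FPKM in AOM/DSS, a difference of -0.11 with a 95% confidence interval of -0.38 to 0.15 (adjusted p = 0.547).

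**Figure D3:**
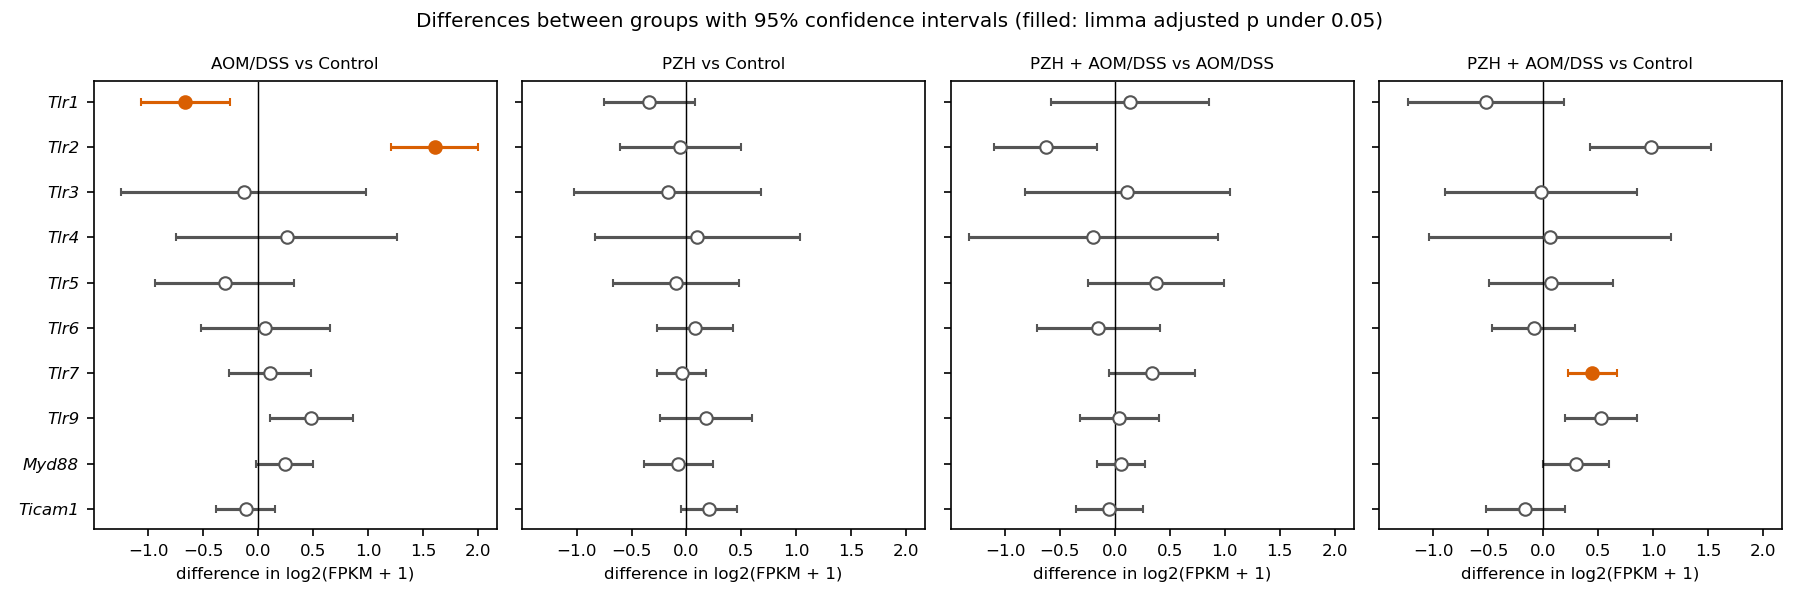
Difference in log2(FPKM + 1) with its 95% confidence interval (horizontal axis) for the 10 genes in 4 comparisons. Filled points were called by limma: Tlr2 at 1.61 and Tlr1 at -0.66 in AOM/DSS against Control, and Tlr7 at 0.44 in PZH + AOM/DSS against Control.

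Genes that act with the receptors were taken from 9 lists by role, 89 genes in all, of which 83 were tested between AOM/DSS and Control. Of these 39 were higher and 2 lower, beside the background of 16.4% higher and 7.23% lower, and their median difference was 0.53. The lists were set with earlier results of these data known, so these counts are a description and not a test of enrichment. Of the genes called higher, Il18r1, Il18rap, Tab3, Cxcl2, Ccl3, Ccl4, Acod1 and S100a9 passed the filter only with AOM/DSS mice counted. That favours a call of higher. Of the other receptors 2 of 3 tested were higher, namely Tlr13, a receptor for bacterial ribosomal RNA, from 0.99 ± 0.31 to 2.83 ± 0.48 FPKM (difference 0.95, adjusted p = 0.00101), and Tlr8 (0.46, adjusted p = 0.0263). Of the 12 accessory and trafficking proteins 5 were higher and 1 lower. The lipopolysaccharide carriers Cd14 and Lbp differed by 1.03 (34.5 ± 5.90 against 72.3 ± 16.0 FPKM, adjusted p = 0.00166) and by 1.08 (adjusted p = 0.00304), and the others were Cnpy3, Hsp90b1 and Lgmn, which act in folding or processing of the receptors. Cd36, a scavenger receptor that serves TLR2 and also takes up fatty acids, was lower (-1.05, adjusted p = 0.00984). Of 3 bridging adaptors 2 were higher, Pik3ap1 (1.40, adjusted p = 0.00132) and Ticam2, the partner of Ticam1 at Tlr4 (0.58, adjusted p = 0.0143).

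Of the 6 receptors of the interleukin-1 family that signal through Myd88, 3 were higher. Il1rl1, the receptor for interleukin-33, had 1.16 ± 0.48 FPKM in Control and 29.7 ± 3.34 FPKM in AOM/DSS (difference 3.85, adjusted p = 5.99e-07), and Il18rap differed by 1.09 (adjusted p = 0.000466). Of 16 kinases and ubiquitin ligases, 2 were higher and none lower, and their median was 0.17. These were Ikbkb (0.41, adjusted p = 0.0332) and Tab3 (1.38, adjusted p = 0.0324). Of 9 transcription factors 5 were higher, among them Rel (1.12, adjusted p = 0.00035) and Jun (1.23, adjusted p = 0.00148). Of 12 negative regulators 5 were higher, including Zc3h12a, an RNase that degrades inflammatory mRNA (1.39, adjusted p = 0.000849), and Tnfaip3 (1.03, adjusted p = 0.0475), and Atf3 was lower (-0.996, adjusted p = 0.00444).

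The list with the highest median was downstream of the receptors. Of 14 tested genes that receptor signalling is known to induce, 11 were higher and none lower, with a median of 1.53. Of these 11, Cxcl2, Ccl3, Ccl4 and Acod1 passed the filter only with AOM/DSS mice counted. The neutrophil chemokine Cxcl2 went from 0.06 ± 0.05 to 27.7 ± 12.6 FPKM (difference 4.62, adjusted p = 4.3e-06), and Il1b from 2.71 ± 2.13 to 52.8 ± 19.2 FPKM (3.97, adjusted p = 6.64e-05). Of 8 host-derived ligands 4 were higher, with S100a9 at 5.29 (adjusted p = 0.00328) and S100a8 at 5.21 (adjusted p = 0.00191). S100a9 was listed at 0 in all 5 PZH mice, and S100a8 and S100a9 are also among the neutrophil markers below.

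**Figure D4:**
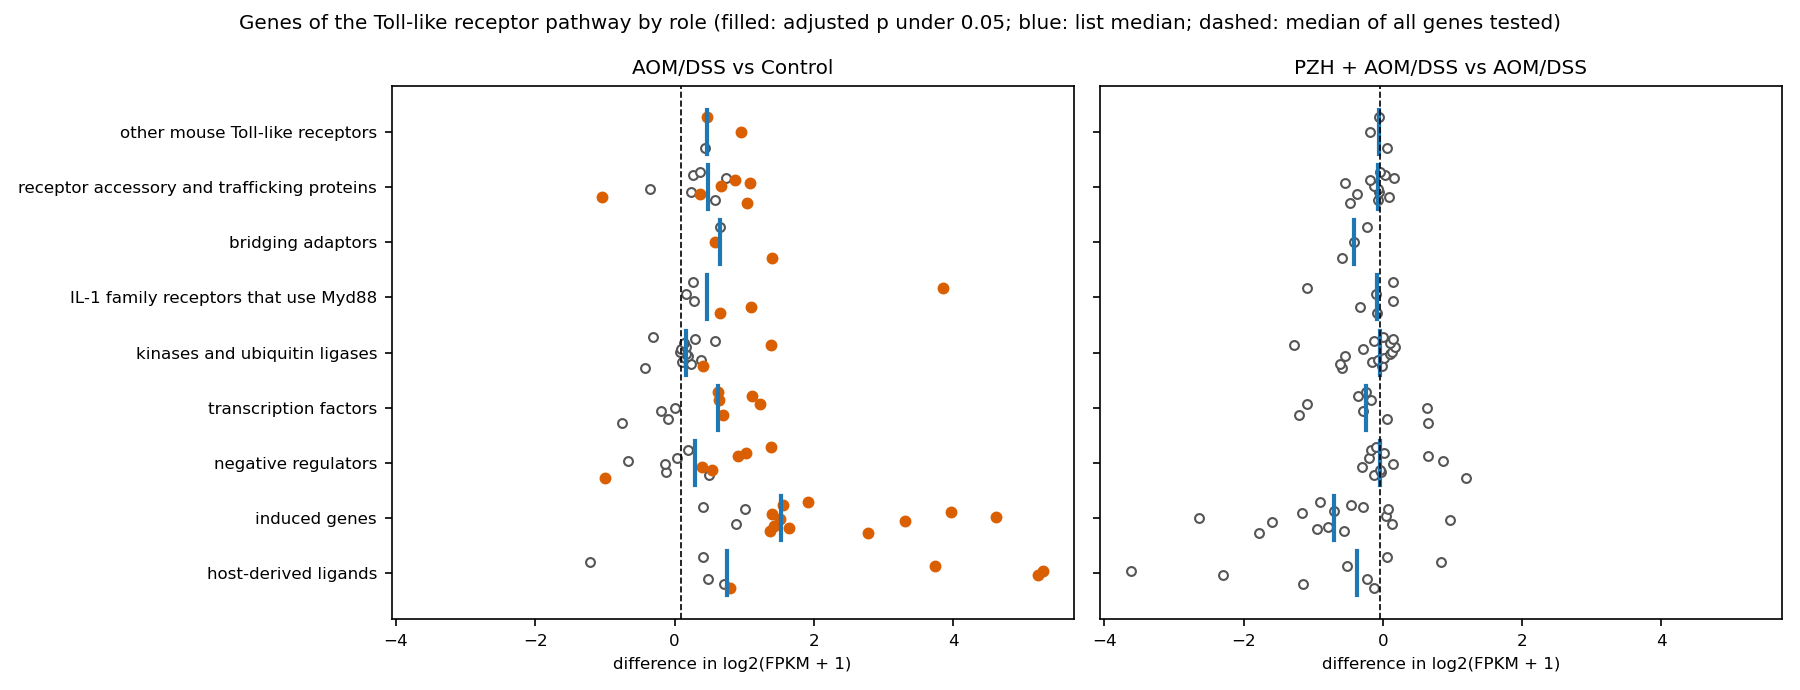
Difference in log2(FPKM + 1) (horizontal axis) of each tested gene of the 9 lists (rows), AOM/DSS against Control on the left and PZH + AOM/DSS against AOM/DSS on the right. Filled points were called, the blue bar is the median of a list and the dashed line that of all genes: on the left the induced genes have the highest median (1.53), and on the right no gene was called.

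Some markers of immune cells were also higher in AOM/DSS than in Control. Of 6 neutrophil markers tested 5 were higher (Cxcr2, Mmp8, Retnlg, S100a8 and S100a9), and Ly6g, which was not called, had 176 ± 113 FPKM in Control and 104 ± 26.5 in AOM/DSS. With Ly6g the 7 markers listed summed to 81.0 to 399 FPKM in Control and 239 to 665 in AOM/DSS, so the groups overlapped. Without Ly6g, which made up most of the Control sum, the other 6 summed to 0.188 to 30.3 FPKM in Control and 0.785 to 10.4 in PZH. They summed to 98.3 to 542 FPKM in AOM/DSS and 5.07 to 268 in PZH + AOM/DSS. Of 8 macrophage and monocyte markers 3 were higher (Cd68, Csf1r and Itgam) and 1 lower (Cd163), and their sum was 185 to 374 FPKM in Control and 299 to 454 in AOM/DSS. Ptprc (CD45), carried by all leukocytes, was 3.66 to 10.47 FPKM in Control and 6.05 to 14.96 in AOM/DSS and was not called. Of 6 T cell markers 4, of 5 B cell markers 2 and of 3 dendritic cell markers tested 1 were higher, and, outside the immune cells, 5 of 5 Paneth cell markers. Over all genes 16.4% were called higher and 7.23% lower. However, S100a9, Cxcr2, Retnlg, Mmp8, Pax5 and the Paneth cell markers Defa24 and Mmp7 passed the filter only with AOM/DSS mice counted. That favours a call of higher for these markers. The marker lists were also set with earlier results of these data known. B cell markers summed to 5.53 to 72.7 FPKM in Control, the highest being mouse 37, and to 29.6 to 74.4 in AOM/DSS. All 4 smooth muscle markers were lower, with sums of 1567 to 3792 FPKM in Control and 625 to 1194 in AOM/DSS. Between AOM/DSS and PZH + AOM/DSS no marker was called. However, 5 of 6 neutrophil and 4 of 5 Paneth cell markers tested had an unadjusted limma p under 0.05, beside 11.7% of all genes. The median differences of these lists were -1.51 and -3.04. Here Cxcr2 and Mmp8 passed the filter only with AOM/DSS mice counted, which favours a fall. In AOM/DSS and PZH + AOM/DSS the median sums were 394 and 175 FPKM for neutrophil markers, or 311 and 55.0 without Ly6g. For Paneth cell markers they were 2353 and 207, and the ranges overlapped in each case. The median sums were 408 and 385 FPKM for macrophage, 17.4 and 17.5 for T cell and 34.9 and 32.3 for B cell markers. The part of these cell types in the receptor differences was not tested.

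PZH alone was set against Control to show its action in colon without the model. None of the 10 genes was called, none had an unadjusted p under 0.05, and the groups overlapped for each of them. The background was 0.00645% of 15506 genes called (1 gene) and 8.84% at an unadjusted p under 0.05. PZH mice had 6.15, 1.95, 2.72, 3.05 and 3.78 FPKM of Tlr2, a difference of -0.05 with a 95% confidence interval of -0.60 to 0.49. Tlr1 was 8.53 to 15.7 FPKM in PZH, with an interval of -0.75 to 0.08, and Ticam1 was 13.6 to 15.5 FPKM, with an interval of -0.05 to 0.46. Myd88 had an interval of -0.39 to 0.24. Tlr5, Tlr6, Tlr7 and Tlr9 differed by -0.09, 0.08, -0.04 and 0.18, with adjusted p of 0.804 or more. PZH mice had 1.95, 7.65, 7.59, 7.32 and 8.59 FPKM of Tlr4, again with 1 mouse far below the rest, and 1.46 to 4.30 FPKM of Tlr3. For Tlr3 and Tlr4 the intervals reached from -1.02 to 0.68 and from -0.84 to 1.03. Of 74 pathway genes tested none was called and 9 had an unadjusted p under 0.05.

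PZH + AOM/DSS was set against AOM/DSS to show the action of PZH in the model. None of the 10 genes was called, beside a background of 0.00629% of 15888 genes (1 gene), and Tlr2 was the only one with an unadjusted p under 0.05, beside 11.7% of all genes. In PZH + AOM/DSS mice Tlr2 was 5.88, 7.69, 6.32, 14.5 and 7.05 FPKM in mice 2, 13, 15, 35 and 36. Mouse 35 lay within the AOM/DSS range and the other 4 mice lay below it. The difference was -0.63 (SE 0.21, 95% confidence interval -1.10 to -0.16, unadjusted p = 0.0135, limma adjusted p = 0.356). Without mouse 35 it was -0.83 and was called (adjusted p = 0.00997), in a comparison in which 808 of 15639 genes were called. Mouse 35 also had the lowest Tlr1 level of all 20 mice, 3.56 FPKM. Its sums of macrophage and neutrophil markers were the highest in its group, 521 and 358 FPKM (neutrophil with Ly6g). So were those of Paneth cell (3517), squamous epithelium (55.0) and dendritic cell markers (11.4) and Ptprc (14.2 FPKM). Its T cell and B cell marker sums were not the highest.

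The other values of PZH + AOM/DSS mice overlapped those of AOM/DSS. Tlr1 was 9.46, 17.4, 8.56, 3.56 and 12.5 FPKM, a difference of 0.14 with a 95% confidence interval of -0.58 to 0.86. Tlr7 was 1.48, 1.08, 1.51, 1.35 and 1.13 FPKM, a difference of 0.34 with an interval of -0.05 to 0.73 (adjusted p = 0.477), and 3 of the AOM/DSS mice lay below all 5 of these and none above. Myd88 was 20.8 to 28.1 FPKM, with an interval of -0.16 to 0.27, and Ticam1 7.94 to 13.03 FPKM, with an interval of -0.35 to 0.25. Tlr4 was 1.80, 2.86, 12.2, 8.46 and 10.52 FPKM and Tlr3 1.26 to 4.34 FPKM, and their intervals were wide (-1.33 to 0.94 and -0.82 to 1.05). Tlr5, Tlr6 and Tlr9 differed by 0.38, -0.15 and 0.04, with adjusted p of 0.614 or more. Of 84 pathway genes tested none was called at the adjusted threshold. However, 23 had an unadjusted p under 0.05, beside 11.7% of all genes. Among these were Cxcl2 with 5.33 ± 6.91 FPKM (difference -2.64, adjusted p = 0.356) and Jun with 41.8 ± 30.4 FPKM (-1.08, adjusted p = 0.356). Another was Lbp with 4.12 ± 1.03 FPKM (-0.55, adjusted p = 0.356). The Lbp range lay below that of AOM/DSS, and 1.08% of all genes had no overlap here in one direction or the other. Atf3 went the other way, with a higher mean than in AOM/DSS, and its levels are given with the interaction. Without mouse 35, 11 pathway genes were called, beside 808 of 15639 genes.

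PZH + AOM/DSS was then set against Control, which shares its Control mice with the comparison of AOM/DSS. Tlr7 was higher, in all 5 mice above all Control mice, with a difference of 0.44 (SE 0.10, 95% confidence interval 0.22 to 0.67, limma adjusted p = 0.0484). It was the 1 gene of 10 called, beside 2.42% of 15616 genes. Of the calls over all genes 64% were higher, or 49.5% under median-of-ratios scaling. The Tlr7 call was lost under 5 other settings and without any of 9 of the 10 mice (adjusted p up to 0.123), and without Control mice 17 and 50 together (0.46, adjusted p = 0.155). Its levels were near 1 FPKM, where the scale understates a change. Tlr2 did not overlap Control either (difference 0.98, SE 0.25, adjusted p = 0.0665), and was called with all 20 mice in one model (adjusted p = 0.0156). These were 2 of 10 genes without overlap, beside 6.76% of all genes. Tlr9, with 1.304, 1.39, 2.11, 1.28 and 1.67 FPKM, differed by 0.52 (SE 0.15, adjusted p = 0.0877), and was called without Control mouse 37 (0.63, adjusted p = 0.0397). Tlr1 differed by -0.52 with an interval of -1.23 to 0.19, and Myd88 by 0.30 with an interval of -6.36e-05 to 0.60. The other 5 genes differed by -0.16 (Ticam1) to 0.07 (Tlr5). Of 79 pathway genes 9 were higher and none lower, among them Tlr13 (0.76, adjusted p = 0.0348), Il1rl1 (2.77, adjusted p = 0.031), Il1b (2.81, adjusted p = 0.028) and Zc3h12a (1.29, adjusted p = 0.0195). Without PZH + AOM/DSS mouse 15 none of the pathway genes was called, beside 78 of 15369 genes. Without any of 6 other mice (Control mice 17, 41, 48 and 50 and PZH + AOM/DSS mice 2 and 35) 2 to 5 were. Over all genes 110 to 166 were called without any of these 6, in place of 378.

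Whether the difference between AOM/DSS and Control was itself different under PZH was tested as an interaction over all 20 mice. None of the 10 genes was called and none had an unadjusted p under 0.05, beside 0.0118% of 16936 genes called and 10.3% at the unadjusted threshold. For Tlr2 the interaction was -0.58 with a 95% confidence interval of -1.28 to 0.13 (adjusted p = 0.577), for Tlr7 0.38 with an interval of -0.04 to 0.81, and for Tlr1 0.48 with an interval of -0.34 to 1.29. The other 7 genes lay between -0.29 (Tlr4) and 0.47 (Tlr5). Of 84 pathway genes 1 was called, the negative regulator Atf3, at 2.305 (adjusted p = 0.0459). No pathway gene was called when any of 16 of the 20 mice was left out. Without PZH + AOM/DSS mouse 35, 6 were called, beside 476 of 16814 genes. The Atf3 level was 25.2 ± 7.31 FPKM in Control against 11.6 ± 5.15 in PZH, and 11.9 ± 2.47 in AOM/DSS against 29.0 ± 7.56 when both treatments were given.

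The gene values are sums over transcripts, and much of the spread of Tlr4 and Tlr3 lay in single transcripts. Tlr4-201, the coding transcript of 4077 bases, held 94.4% of the Tlr4 sum. It fell into separate ranges, 0.751 to 1.69 FPKM in 5 mice and 6.22 to 11.8 FPKM in the other 15. The 5 low mice were 1 each of Control, PZH and AOM/DSS and 2 of PZH + AOM/DSS. Tlr3-205 was listed at 0 in 7 mice and had a median of 0.00359 FPKM, but reached 5.98 and 2.45 FPKM in Control mice 17 and 37 and 6.39 FPKM in AOM/DSS mouse 33. Tlr1 was shared between Tlr1-201 (69.2% of the sum) and Tlr1-202 (30.5%). Tlr1-201 was 9.24 ± 2.47 FPKM in Control and 5.73 ± 1.19 FPKM in AOM/DSS, and Tlr1-202 was 4.74 ± 2.02 and 2.76 ± 2.74 FPKM. A transcript with a retained intron held 7.24% of Myd88, and Tlr2, Tlr9 and Ticam1 had 1 transcript each, so their values do not rest on a split between named transcripts.

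**Figure D5:**
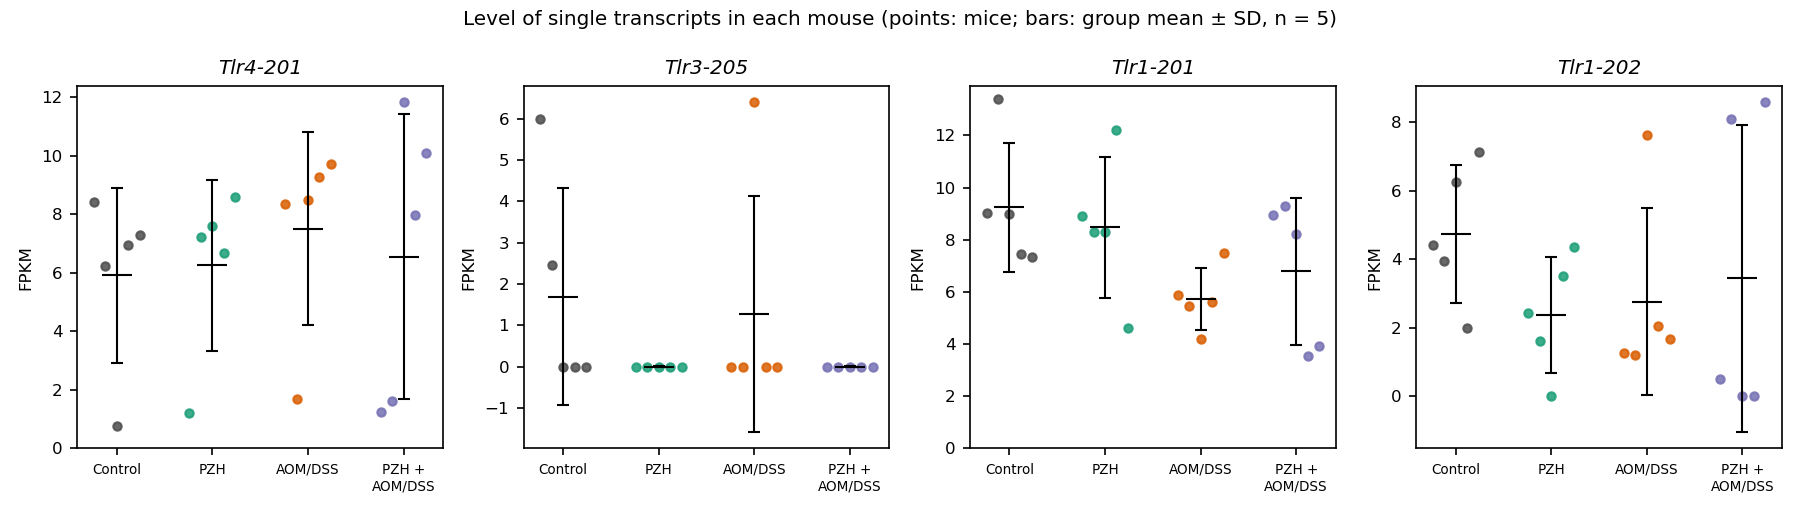
FPKM (vertical axes) of 4 transcripts in every mouse by group, with mean and SD of 5 mice. Tlr4-201 is under 1.69 FPKM in 5 mice spread over all groups and above 6.22 FPKM in the rest, and Tlr3-205 is near 0 except in 3 mice.

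Across the 20 mice, the genes most like Tlr2 among 14140 searched were Cp, which encodes ceruloplasmin (Pearson r = 0.95), Hmox1, which encodes heme oxygenase (r = 0.94), and Pla2g7 (r = 0.94). Once group means were removed these were 0.72, 0.73 and 0.65. The genes most like Tlr1 were 3110001I22Rik (r = 0.85), Fbxo25 (r = 0.80) and Akr1c12 (r = 0.80), with 0.82, 0.73 and 0.75 once group means were removed. Tlr1 and Tlr2 themselves had r = -0.54. The mice fall into 4 groups and both genes of a pair are read from the same libraries, so these are descriptions over 20 mice with no test.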

How the data were processed

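Colon RNA-seq of 20 mice (4 groups of 5) was used, with 1 table per mouse. The authors assessed reads with FastQC v0.11.5, filtered them with NGSQC v2.3.3, aligned them to mm10 with HISAT2 v2.1.0, assembled and quantified transcripts with StringTie v1.3.3b, and deposited FPKM per transcript. Each table holds 118434 transcripts, 96182 of Ensembl and 22252 assembled ones without gene name. FPKM were summed per gene for the 96032 Ensembl transcripts in GENCODE M21, and 150 were not used. With no counts deposited, log2(FPKM + 1) was compared with limma 3.58.1 (R 4.3.3, intensity trend, 10 mice of both groups, no covariates; 20 mice for the interaction), with Benjamini-Hochberg adjustment over all genes with at least 0.5 FPKM in at least 5 mice.

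The depth was read from the steps of FPKM times transcript length, of which 42.5% to 47.3% of low values came out whole within 0.02 of a step, so it is an estimate. The method was tested on simulated data: of 200 genes changed between AOM/DSS and Control, 169 (84.5%) were found over 15169 genes and 8 unchanged genes were called, and between PZH + AOM/DSS and AOM/DSS 160 (80%) were found over 15573 genes and 18 unchanged genes were called. Every changed gene was shifted by the same large amount, close to the Tlr2 difference between AOM/DSS and Control, and genes of low level were not changed. The simulated noise was drawn for each gene on its own, so no simulated mouse departed from its group across many genes. In the real data, leaving out PZH + AOM/DSS mouse 35 moved the calls against AOM/DSS from 1 of 15888 to 808 of 15639 genes. These shares therefore do not tell how often a smaller difference, or one in a gene near 1 FPKM, would be found. Nor do they tell how often a difference would be found in a group that holds such a mouse. The 10 genes, the pathway and marker lists and the tests were chosen with earlier results of these data known. Named pathway genes were by rule, for each list, the called genes that rose most and fell most between AOM/DSS and Control, up to 2 in each direction; other genes were picked with their values in view. Sequences are RefSeq promoters. Alternatives were median-of-ratios scaling, no filter, a filter of at least 1 FPKM in every mouse, pseudocounts of 0.1 and 0.5, no intensity trend, all 20 mice in one model, the most abundant transcript per gene, and leaving out each mouse. Leaving out Control mice 17 and 50 together was added after the data were seen. Mice are the replicates. The labels' extraction text names the abdominal aorta, while the tissue is labelled colon. The result of 1 marker list is not reported here.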

Additional observations from a re-analysis of the deposited data

Results flagged for a closer look

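Of 40 sets of 5 values (10 genes in 4 groups), 4 held a mouse far from the other 4 mice of its group, where chance gives about 2. Tlr2 was 14.5 FPKM in PZH + AOM/DSS mouse 35, and the next mouse had 7.69 FPKM. Tlr3 was 10.4 FPKM in AOM/DSS mouse 33, and the next had 1.89 FPKM. Tlr4 was 1.95 FPKM in PZH mouse 8, below the next at 7.32 FPKM, and 1.83 FPKM in AOM/DSS mouse 30, below the next at 8.74 FPKM.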

How the results depend on the processing

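Tlr2 stayed higher in AOM/DSS than in Control under every alternative and without any single mouse. Beyond the changes given in the report, a count of calls depended on the setting as follows. With all 20 mice in one model, 1 of the 10 genes was called between AOM/DSS and Control in place of 2. Pathway calls were 4 in place of 0 between PZH + AOM/DSS and AOM/DSS, and 24 in place of 9 between PZH + AOM/DSS and Control. Over all genes this model called, in the same order, 4103 in place of 3739, 89 in place of 1 and 1503 in place of 378. With at least 1 FPKM in every mouse, 20 pathway genes were called between AOM/DSS and Control, where 56 could be tested in place of 83. The background there was 2699 of 11320 genes. Between PZH + AOM/DSS and Control, 0 of the 10 genes were called under median-of-ratios scaling, no filter, at least 1 FPKM in every mouse (6 genes tested), a pseudocount of 0.1, no intensity trend and the most abundant transcript (8 genes tested), and pathway calls were 2 without a filter and 4 with at least 1 FPKM in every mouse. Over all genes in that comparison, 98 of 31060 were called without a filter and 284 of 11332 with at least 1 FPKM in every mouse. The interaction of Atf3 was lost without a filter, with a pseudocount of 0.1 or 0.5 and with the most abundant transcript. Each of these gave 0 calls among the pathway genes and over all genes. The cause was not tested, beside the fewer genes that the stricter filter and the single transcript left to test.

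Signs turned for differences that were not called. With a pseudocount of 0.1 these were Tlr6 for AOM/DSS against Control (-0.15) and for PZH + AOM/DSS against AOM/DSS (0.0127), and Tlr3 for PZH + AOM/DSS against Control (0.0178). With the most abundant transcript they were Tlr3 for PZH against Control (0.11), Tlr3 (0.0543) and Tlr4 (-0.0126) for PZH + AOM/DSS against Control, and Tlr7 in the interaction (from 0.38 to -0.0347), and with median-of-ratios scaling Tlr4 for PZH + AOM/DSS against Control (-0.00729). Without Control mice 17 and 50, an alternative chosen after seeing the data, 1 of the 10 genes was called between AOM/DSS and Control. Between PZH + AOM/DSS and Control 0 of the 10 and 0 pathway genes were, and 0 pathway genes were called in the interaction. Over all genes this setting called, in the same order, 2739 of 15381, 29 of 15180 and 0 of 16788. Signs turned for Tlr3 in AOM/DSS (0.092), PZH (0.053) and PZH + AOM/DSS (0.20) against Control, for Tlr2 in PZH (0.13) and for Tlr5 in PZH + AOM/DSS (-0.20).

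Leaving out each mouse in turn gave 1 to 3 of the 10 genes called between AOM/DSS and Control, 0 to 1 between PZH + AOM/DSS and AOM/DSS, 0 to 1 between PZH + AOM/DSS and Control, and 0 in the others. Pathway calls were 30 to 43, 0 to 11 and 0 to 10 in these comparisons and 0 to 6 in the interaction. Calls over all genes moved too, from 2516 of 15426 to 3562 of 15645 between AOM/DSS and Control. They were 1 to 808 (of 15639) between PZH + AOM/DSS and AOM/DSS. Between PZH + AOM/DSS and Control they were 78 of 15369 to 495 of 15402, and in the interaction 0 to 476 (of 16814). Differences that changed sign without 1 mouse are given by their lowest and highest value. For AOM/DSS against Control these were Tlr3 (-0.55 to 0.20), Tlr4 (-0.10 to 0.63) and Tlr6 (-0.10 to 0.29). For PZH against Control these were Myd88 (-0.15 to 0.0096), Tlr2 (-0.24 to 0.083), Tlr3 (-0.33 to 0.16), Tlr4 (-0.26 to 0.41), Tlr5 (-0.27 to 0.090), Tlr6 (-0.056 to 0.15) and Tlr7 (-0.093 to 0.014). For PZH + AOM/DSS against AOM/DSS these were Ticam1 (-0.11 to 0.051), Tlr1 (-0.072 to 0.43), Tlr3 (-0.052 to 0.53), Tlr4 (-0.57 to 0.13), Tlr6 (-0.38 to 0.0104) and Tlr9 (-0.073 to 0.12). For PZH + AOM/DSS against Control these were Tlr3 (-0.18 to 0.31), Tlr4 (-0.29 to 0.39) and Tlr5 (-0.11 to 0.22). For the interaction these were Tlr3 (-0.048 to 0.70) and Tlr4 (-0.66 to 0.0603).

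No paired analysis was possible because the mouse numbers of the labels are not shared between groups. With 5 mice a group, an interval for Tlr3 or Tlr4 spans about 2 units of log2, so moderate changes of these genes were not detectable. FPKM tables hold no counts, so the precision of a single value at low level is unknown, which touches Tlr5, Tlr6, Tlr7 and Tlr9. The medicine and model effects were compared in 1 cohort. The limma p-values set a difference against the variation between these mice, moderated over all genes, and do not cover another cohort.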
